A study of Mus musculus with 40 samples.

Results

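The 8 genes described here make, move, sense and remove adenosine: the receptors *Adora1* and *Adora2a*, the adenosine kinase gene *Adk*, the adenosine deaminase gene *Ada*, the ecto-5'-nucleotidase gene *Nt5e*, the equilibrative nucleoside transporter gene *Slc29a1*, and the ectonucleotidases *Entpd1* and *Entpd2*. They were found by matching these symbols to the Ensembl gene identifiers of the count tables, and all 8 matched, of 47643 genes in each table. The study collected RNA from the hippocampus and the frontal cortex of juvenile wild-type, germ-free Swiss Webster mice that had received a human fecal microbiota transfer (FMT) and were all kept on control chow. The stool came from 10 children with refractory epilepsy, given either as sampled before the ketogenic diet (pre-KD) or as sampled after about a month on it (post-KD). Each of the 20 cohorts, 1 per donor and condition, gave 1 hippocampal and 1 frontal cortical library, so that 10 libraries stood in each of the 4 groups of region and condition. Each library pooled the RNA of several mice, so the spread between libraries is between cohorts and not between animals, and no group was left without a human microbiota. A pre-KD and a post-KD cohort of the same number shared the stool donor.

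Adenosine in the brain acts as a brake on neuronal firing and has long been studied as an endogenous anticonvulsant. Outside the cell, ATP and ADP are cut to AMP by ectonucleotidases such as those encoded by *Entpd1* (CD39) and *Entpd2*, and AMP is cut to adenosine by the enzyme encoded by *Nt5e* (CD73). The transporter encoded by *Slc29a1* (ENT1) lets adenosine move across the membrane in either direction. Inside the cell, the kinase encoded by *Adk*, which is found mainly in astrocytes of the adult brain, returns adenosine to AMP, and the deaminase encoded by *Ada* turns it into inosine. The receptor encoded by *Adora1* couples to inhibitory G proteins and is widespread in the hippocampus and cortex, whereas the receptor encoded by *Adora2a* couples to stimulatory G proteins and is concentrated in striatal neurons of the indirect pathway.

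In the GRCm38 (mm10) assembly, all 8 are protein-coding genes, and reads were counted over their exons, untranslated regions included. *Adora1* (ENSMUSG00000042429) lies at chr1:134199223-134235431 on the minus strand and *Adora2a* (ENSMUSG00000020178) at chr10:75316877-75334784 on the plus strand. *Adk* (ENSMUSG00000039197) lies at chr14:21052574-21448569 on the plus strand and *Ada* (ENSMUSG00000017697) at chr2:163726584-163750239 on the minus strand. *Nt5e* (ENSMUSG00000032420) lies at chr9:88327197-88372092 on the plus strand and *Slc29a1* (ENSMUSG00000023942) at chr17:45585200-45599606 on the minus strand. *Entpd1* (ENSMUSG00000048120) lies at chr19:40612366-40741602 and *Entpd2* (ENSMUSG00000015085) at chr2:25395874-25401321, both on the plus strand. Of the 2128 exon bases of *Entpd2*, 612 are also exons of *Npdc1* on the same strand, so reads there cannot be given to *Entpd2* alone. *Npdc1* held 5624 counts over all 40 libraries. Levels of *Entpd2* per kilobase were divided by all 2128 bases, and whether the shared bases change its place in the order of levels was not tested. *Adora1* shares 1162 of its 5785 exon bases with *Mybph* on the other strand, which held 20 counts over all 40 libraries.

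Depth was low. The hippocampal libraries held 1140756 to 1947416 counts and the frontal cortical libraries 1188447 to 2095352. As CPM, the counts of a gene relative to the library total, scaled between libraries by TMM normalization, 1 count stood for 0.544 to 0.834 in the hippocampus and for 0.499 to 0.943 in the frontal cortex. A count of 0 thus allowed a level of up to 1.63 to 2.501 CPM in a hippocampal library and 1.496 to 2.83 CPM in a frontal cortical library, taking 3 counts as the limit and covering counting error only. All 8 libraries of donors 9 and 10 held counts of the Y-linked gene *Ddx3y* (52 to 139) and few of *Xist* (6 to 42), against 487 to 1191 *Xist* counts in each of the other 32, although the methods describe female mice. Of those 32 libraries, 5 also held *Ddx3y* counts, of at most 27. Each test was therefore also run without donors 9 and 10. The summed level of 10 hippocampal neuron markers was 182 to 440 CPM in the hippocampal and 107 to 264 CPM in the frontal cortical libraries. That of 10 cortical layer markers was 581 to 1067 CPM and 894 to 1269 CPM, so both sums shifted with the label but overlapped between the regions.

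Per kilobase of exon, *Adora1* stood far above the other 7 genes in both regions. Its mean level was 34.3 ± 10.4 CPM per kilobase in the hippocampus and 33.6 ± 6.10 CPM per kilobase in the frontal cortex (SD, n = 20 each), and it exceeded the next gene in 20 of 20 libraries of each region. In the hippocampus *Adk* followed at 3.41 ± 2.07 CPM per kilobase, *Slc29a1* at 2.72 ± 1.66 and *Entpd2* at 2.40 ± 4.30 (SD, n = 20). *Adk* was the higher of *Adk* and *Slc29a1* in 10 of 20 hippocampal libraries, so these neighbours were not separated beyond their spread. *Entpd1* (0.798 ± 1.09 CPM per kilobase), *Adora2a* (0.712 ± 1.13), *Ada* (0.424 ± 0.702) and *Nt5e* (0.0767 ± 0.218) closed the hippocampal order, each with an SD above its mean.

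The frontal cortical order differed in the place of *Adora2a*, which was second at 9.36 ± 5.03 CPM per kilobase (SD, n = 20) and exceeded *Adk* (3.602 ± 1.84) in 17 of 20 libraries. Without division by exon length the order of this pair turned, at 30.7 CPM for *Adk* and 28.7 CPM for *Adora2a*, and the library kit that decides which scale fits is not settled. *Slc29a1* (2.89 ± 2.11 CPM per kilobase) and *Entpd2* (2.27 ± 2.11) came next, and *Slc29a1* was the higher of that pair in 11 of 20 libraries. *Ada*, *Entpd1* and *Nt5e* were lowest there, at mean levels of 0.594, 0.546 and 0.282 CPM per kilobase. The mean of *Ada* stood above that of *Entpd1*, but *Ada* was the higher of them in 4 of 20 libraries, and 1 library held 35 of its counts.

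**Figure D1:**
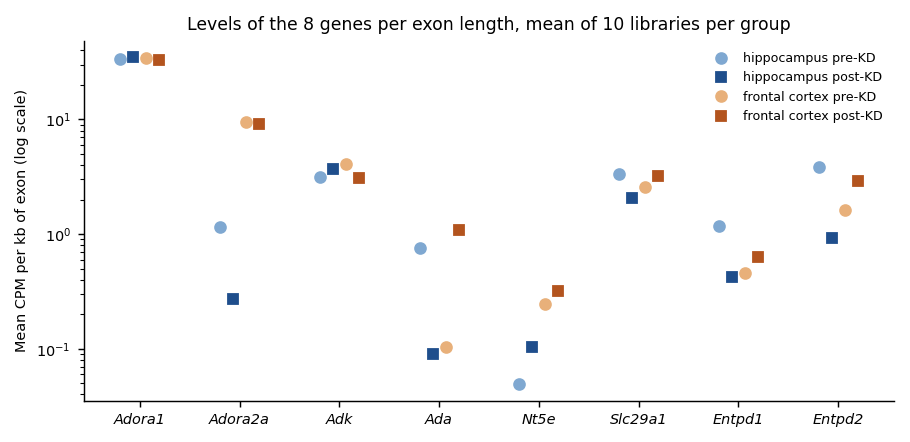
Mean level of each of the 8 genes in CPM per kilobase of exon (vertical axis, log scale) in the 4 groups of 10 libraries, with circles for pre-KD and squares for post-KD, blue for hippocampus and brown for frontal cortex. *Adora1* lies at 32.7 to 35.0 CPM per kilobase in every group, and *Adora2a* at 0.274 to 1.15 in the hippocampus and 9.13 to 9.58 in the frontal cortex.

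The SD between libraries was above that expected from counting alone for every gene, but only slightly so in some sparsely counted groups. The SD of CPM within a group was 3.01 to 6.29 times the SD expected from counting for *Adora1*, 2.63 to 4.13 times for *Adora2a* and 2.24 to 4.87 times for *Adk*. For the sparsely counted *Ada* the range was 1.16 to 5.22 times. The lowest ratios were 1.16 for *Ada* in the hippocampal post-KD group (3 counts) and 1.25 for *Nt5e* in the hippocampal pre-KD group (7 counts). Whether such small excesses differ from counting error was not tested.

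*Adora1* was the most evenly measured of the genes. Its CPM ranged from 141 to 280 in the hippocampal pre-KD libraries (median 183), from 44.6 to 309 in the hippocampal post-KD libraries (median 216), from 159 to 275 in the frontal cortical pre-KD libraries (median 193) and from 139 to 261 in the frontal cortical post-KD libraries (median 185). The value of 44.6 belonged to the hippocampal post-KD library of donor 8, in which 68 *Adora1* reads were counted, and the other 39 libraries lay at or above 139. All 4 groups overlapped over most of their range. The frontal cortical level differed from the hippocampal level by a log2 fold change of 0.02 ± 0.11 (SE; 95% interval -0.21 to 0.24; adjusted p = 0.988 in edgeR's quasi-likelihood test), and the gene was higher in the frontal cortex of 9 of 20 cohorts. The sign of this estimate turned under other settings.

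*Adora2a* was sparsely counted in the hippocampus. It had 57 counts over 10 pre-KD libraries, with 3 libraries at 0, a median of 2.62 CPM and a highest value of 11.9 CPM in donor 4. The hippocampal post-KD libraries held 14 counts, 13 of them in donor 2 (7.70 CPM) and 1 in donor 1 (0.695 CPM), with 8 libraries at 0. The frontal cortical libraries held 477 counts over the pre-KD libraries (0 to 46.0 CPM, median 32.7) and 466 over the post-KD libraries (11.9 to 65.4 CPM, median 23.0). Of the 20 frontal cortical libraries, 19 lay above every hippocampal library, the margin being narrow (11.87 against 11.86 CPM), and the pre-KD library of donor 1 held no *Adora2a* read.

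*Adora2a* was the only 1 of the 8 genes to pass the adjusted threshold between the regions, where 2.85% of the 19422 genes tested did so in edgeR's quasi-likelihood test with the cohort as a term. Those called higher in the frontal cortex were 1.98% of the genes tested and those called higher in the hippocampus 0.87%. Its log2 fold change was 4.73 ± 0.62 (SE; adjusted p = 6.48e-12), a 26.6-fold higher level in the frontal cortex, and it was higher there in 19 of 20 cohorts and tied at 0 in the other. Without the cohort term the log2 fold change was 3.84, a 14.3-fold difference (adjusted p = 4.47e-08), and without donors 9 and 10 it was 4.52 (adjusted p = 2.10e-08). Over all alternatives the adjusted p lay between 2.47e-16 and 6.40e-07. From the summed counts, the frontal cortical level was 8.33 times the hippocampal level in the pre-KD cohorts (95% exact counting interval 6.32 to 11.2) and 28.4 times in the post-KD cohorts (16.7 to 52.3). These intervals cover counting error only, and the post-KD ratio is set by the donor 2 library, which held 13 of the 14 hippocampal counts. In this fit the median log2 fold change of all genes tested was 0.17. Library preparation and sequencing may have coincided with the region. If so, the region and the processing cannot be told apart in any comparison between the regions given here.

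A list of 12 striatal neuron markers moved between the regions together with *Adora2a*. All 11 of them that had enough counts to be tested were higher in the frontal cortex at adjusted p under 0.05, with a median log2 fold change of 3.13. Their summed level was 64.3 to 452 CPM in the hippocampal and 703 to 1654 CPM in the frontal cortical libraries, with no overlap. *Penk*, the enkephalin precursor of indirect-pathway neurons, averaged 25.6 CPM in the hippocampus and 210 CPM in the frontal cortex, *Gpr6*, an orphan receptor of the same neurons, 0.0288 and 9.74 CPM, and *Drd1*, the dopamine receptor of direct-pathway neurons, 16.8 and 94.5 CPM. *Drd2*, the defining receptor of the indirect pathway, was at 0 in every hippocampal library and averaged 0.167 CPM in the frontal cortex, and was the marker left untested. In bulk tissue, more cells of a type and more RNA per cell cannot be told apart, and the part of striatal tissue in the *Adora2a* difference was not tested.

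Across libraries of 1 region the relation between *Adora2a* and the striatal markers was looked at for both regions. In the 20 hippocampal libraries, log2 CPM of *Adora2a* and the mean log2 CPM of the 12 markers correlated with Pearson's r = 0.50 (permutation p = 0.0237, adjusted over both regions 0.0475) and Spearman's rho = 0.55 (permutation p = 0.0143, adjusted 0.0286; two-sided, 100000 resamples). Without the 2 libraries farthest from the median of the markers, r was 0.48 (permutation p = 0.0403), and without donors 9 and 10 it was 0.54 (permutation p = 0.0294). These values pool both conditions, so any shift shared between them enters r. Mean *Adora2a* was 3.52 CPM pre-KD and 0.839 CPM post-KD, and the mean marker sum was 251 and 195 CPM. Within the 10 pre-KD libraries r was 0.71 (permutation p = 0.0152), and within the 10 post-KD libraries, 8 of which held no *Adora2a* read, it was 0.03 (permutation p = 0.910). With so many libraries at 0 the post-KD value says little, and the difference between these correlations was not tested. On linear CPM the pooled hippocampal r was 0.41 (permutation p = 0.0783). In the 20 frontal cortical libraries r was 0.02 (permutation p = 0.931) and rho 0.01 (permutation p = 0.957), and r was 0.05 within pre-KD (permutation p = 0.895) and -0.13 within post-KD (permutation p = 0.726). Without the 2 farthest libraries the frontal cortical r was -0.11 (permutation p = 0.673). The frontal cortical library with no *Adora2a* read, pre-KD of donor 1, held 1282 CPM of the striatal markers, near the frontal cortical median of 1300.0.

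**Figure D2:**
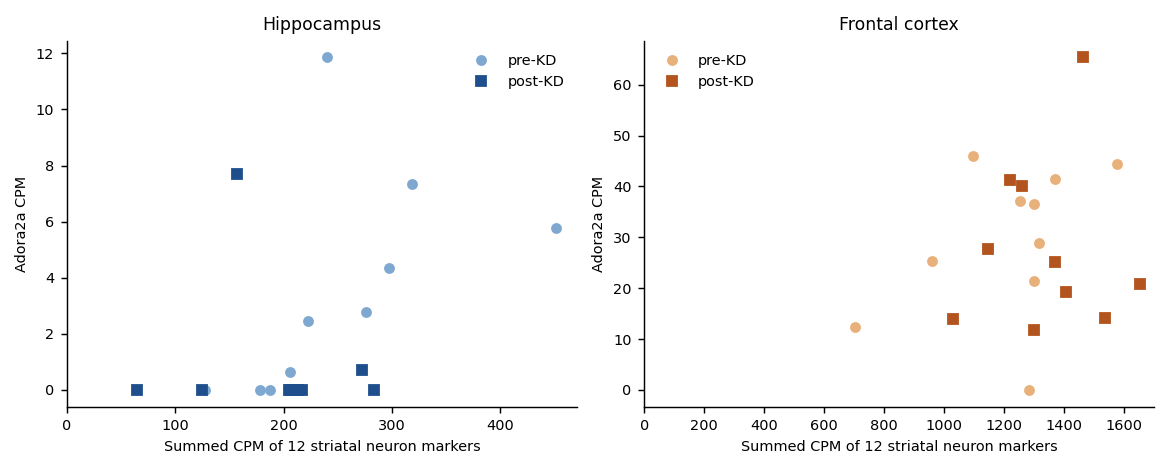
*Adora2a* CPM (vertical axis) against the summed CPM of 12 striatal neuron markers (horizontal axis) in each library, hippocampus on the left and frontal cortex on the right, with circles for pre-KD and squares for post-KD. The vertical scales differ: hippocampal libraries reach 11.9 CPM, and frontal cortical libraries 65.4 CPM.

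The study asked how the human microbiota from before and after the diet acts on seizure susceptibility in mice, and the brain libraries compared gene expression between the recipients of each. For *Adora2a* in the hippocampus the post-KD log2 fold change was -1.96 ± 1.44 (SE; 95% interval -4.81 to 0.90; edgeR adjusted p = 0.896), with the post-KD library lower in 7 donors, higher in 2 and equal in 1. Without donor 2, whose post-KD library held 13 of the 14 reads, it was -4.65 (edgeR p = 0.00657, adjusted p = 0.115). This was the only 1 of 16 alternatives with an unadjusted p under 0.05, and the estimates lay between -4.65 and -1.39. The striatal marker sum was 127 to 452 CPM in the hippocampal pre-KD libraries and 64.3 to 283 CPM in the post-KD libraries, and 9 of the 10 markers tested had a lower estimate post-KD, 1 of them at an unadjusted p under 0.05, as 10.1% of all genes tested had. Its part in the *Adora2a* values was not tested. The frontal cortical *Adora2a* log2 fold change was -0.08 ± 0.37 (95% interval -0.81 to 0.66; edgeR adjusted p = 0.998), with the post-KD library lower in 7 of 10 donors. There 8 of the 11 striatal markers tested had a higher estimate post-KD, 2 of them at an unadjusted p under 0.05, as 9.68% of all genes tested had. The post-KD change of *Adora2a* in the frontal cortex minus that in the hippocampus was 3.01 ± 1.23 on the log2 scale (edgeR p = 0.0143, adjusted p = 1), 1 of 8 genes with an unadjusted p under 0.05 where 2.22% of 19422 genes tested had one. That difference was 1.82 without the cohort term (edgeR p = 0.0622), and its unadjusted p was above 0.05 without donor 4 or without donor 6. Without donor 2 it was 4.45 (edgeR p = 0.000854, adjusted p = 1), and the unadjusted p was under 0.05 in 13 of 16 alternatives. Of the 11 striatal markers tested, 3 also had an unadjusted p under 0.05 in this difference, all in the same direction. For *Adora1* the post-KD log2 fold change was 0.05 ± 0.19 in the hippocampus (95% interval -0.32 to 0.42; edgeR adjusted p = 0.9998), with the post-KD library higher in 8 of 10 donors. Without donor 8, whose post-KD library was the low one, it was 0.25 (edgeR p = 0.169). In the frontal cortex the *Adora1* log2 fold change was -0.08 ± 0.13 (-0.34 to 0.18; edgeR adjusted p = 0.996), with the post-KD library higher in 3 of 10 donors.

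In neither region did a member of the group pass the adjusted threshold, in edgeR or in DESeq2. All 8 had the 10 counts that the fits required. In the hippocampus 0 of 8 also had an unadjusted p under 0.05 in edgeR, where 10.1% of the 17529 genes tested had one and 0.0057% passed the adjusted threshold, and DESeq2 gave 1, *Entpd2* (p = 0.0352), where 599 of 17529 genes had one in DESeq2. Among frontal cortical comparisons 1 of 8, *Ada*, had an unadjusted p under 0.05 in edgeR, where 9.68% of 17873 genes had one and 0.0056% passed the adjusted threshold. In DESeq2, or in edgeR with the donor as a block, that number was 0, and in DESeq2 with the block it was 1, *Adk* (log2 fold change -0.69, p = 0.0440, adjusted p = 0.632). Of 17873 genes, 825 had such a p in DESeq2, 548 in edgeR with the block and 1096 in DESeq2 with the block. The median post-KD log2 fold change of the 8 genes was -1.07 in the hippocampus, where 5 estimates were below 0, and 0.33 in the frontal cortex, where 3 were. The medians of all genes tested were -0.01 and 0.01. The middle estimates that set these medians were those of *Entpd1* and *Slc29a1* in the hippocampus and of *Slc29a1* and *Nt5e* in the frontal cortex. Of the differences between regions in the post-KD change, 0 of 8 passed the adjusted threshold, as did 0.0154% of all genes tested.

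**Figure D3:**
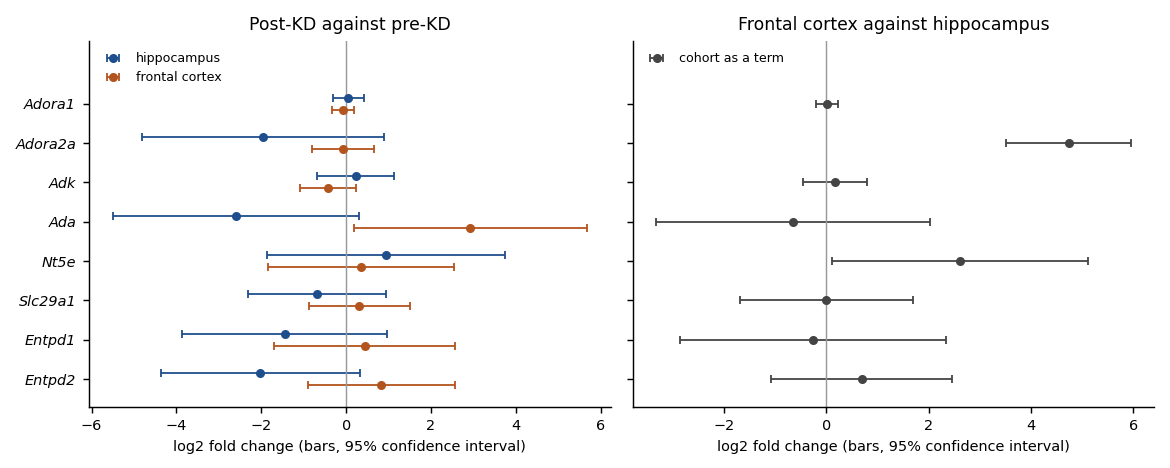
Log2 fold changes from edgeR with 95% confidence intervals for the 8 genes, post-KD against pre-KD on the left (blue, hippocampus; brown, frontal cortex) and frontal cortex against hippocampus on the right. *Adora1* has the narrowest intervals in all 3 comparisons, and the interval of *Adora2a* on the right, 3.52 to 5.95, lies farthest from 0.

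*Adk* was detected in all 40 libraries. Its CPM was 7.63 to 60.4 in the hippocampal pre-KD libraries (median 25.1), 5.74 to 66.6 post-KD (median 26.7), 17.04 to 50.6 in the frontal cortical pre-KD libraries (median 34.3) and 6.47 to 61.4 post-KD (median 20.5). The groups overlapped, and the lowest and the highest hippocampal value both fell in post-KD libraries, of donors 5 and 7. The post-KD log2 fold change was 0.22 ± 0.45 in the hippocampus (95% interval -0.68 to 1.12; edgeR adjusted p = 0.9998), higher in 6 of 10 donors, and -0.43 ± 0.33 in the frontal cortex (-1.09 to 0.23; adjusted p = 0.885), lower in 6 of 10. Between the regions it was 0.18 ± 0.32 (-0.45 to 0.81; edgeR adjusted p = 0.910).

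*Ada* was at the edge of detection. The hippocampal pre-KD libraries held 25 counts in 8 of 10 libraries, 9 of them in donor 1 (5.35 CPM), and the post-KD libraries held 3 counts in 2 libraries. The pre-KD level was thus 7.67 times the post-KD level, and the exact interval for counting error alone ran from 2.34 to 39.7. Against the spread between libraries the post-KD log2 fold change was -2.60 ± 1.47 (95% interval -5.51 to 0.31; edgeR p = 0.0794, adjusted p = 0.646), with the post-KD library lower in 8 of 10 donors, higher in 1 and equal in 1. Leaving out donor 7, whose post-KD library held 2 of the 3 reads, gave -3.57 (edgeR p = 0.0217, adjusted p = 0.300). This was the only 1 of 16 alternatives with an unadjusted p under 0.05, and the estimates lay between -3.57 and -2.05. Frontal cortical counts ran the other way, with 4 in the pre-KD and 40 in the post-KD libraries, but 35 of the 40 were in the library of donor 3 (18.9 CPM) and the next highest library stood at 0.667 CPM. The log2 fold change there was 2.92 ± 1.38 (95% interval 0.18 to 5.67; edgeR p = 0.0372, adjusted p = 0.443), higher in 6 of 10 donors. Without donor 3, *Ada* no longer had the counts to be tested, and in DESeq2 the log2 fold change was 0.14 (p = 0.9497). The difference between the regions in this change was 4.47 ± 2.74 (edgeR p = 0.103, adjusted p = 1), and 5.54 without the cohort term (edgeR p = 0.00498, adjusted p = 0.147). No other of the 15 alternatives for this difference had an unadjusted p under 0.05.

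*Slc29a1* had 216 counts in the hippocampal pre-KD libraries, at 5.09 to 19.03 CPM (median 15.8), and 125 in the post-KD libraries, at 0 to 18.1 CPM (median 8.07). The post-KD libraries of donors 5, 7 and 8 held none, whereas every pre-KD library held at least 8 reads. The post-KD log2 fold change was -0.69 ± 0.82 (95% interval -2.32 to 0.94; edgeR adjusted p = 0.9998), with the post-KD library lower in 7 of 10 donors. Frontal cortical values were 1.70 to 29.5 CPM pre-KD (median 8.08) and 0 to 24.4 CPM post-KD (median 13.4), with a log2 fold change of 0.31 ± 0.60 (-0.88 to 1.49; edgeR adjusted p = 0.998). Between the regions the log2 fold change was 0.00 ± 0.86 (-1.68 to 1.69; edgeR adjusted p = 0.9999).

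*Entpd1* had 102 counts in the hippocampal pre-KD libraries, spread over 9 of 10 libraries at up to 21.8 CPM in donor 5 (median 2.97 CPM). The post-KD libraries held 36 counts, 19 of them in donor 1 (13.2 CPM) and most of the rest in donor 7 (9.08 CPM), and 6 libraries were at 0. The log2 fold change was -1.45 ± 1.22 (95% interval -3.86 to 0.97; edgeR adjusted p = 0.965), with the post-KD library lower in 7 of 10 donors, and -3.17 in DESeq2 with the donor as a block (p = 0.00964, adjusted p = 0.624). That fit was the only 1 of 16 alternatives with an unadjusted p under 0.05, and the estimates lay between -3.34 and -0.883. Frontal cortical *Entpd1* lay at 0 to 7.95 CPM pre-KD and 0 to 15.1 CPM post-KD, with a log2 fold change of 0.43 ± 1.07 (-1.70 to 2.57; edgeR adjusted p = 0.998).

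*Entpd2* was carried by a few high libraries. The hippocampal pre-KD libraries of donors 7 and 9 stood at 34.0 and 27.996 CPM, while the other 8 lay between 0 and 5.28 CPM (group median 3.01). The hippocampal post-KD libraries lay between 0 and 7.11 CPM (median 1.26), and the group sums were 128 and 29 counts. The log2 fold change was -2.03 ± 1.18 (95% interval -4.37 to 0.31; edgeR p = 0.0890, adjusted p = 0.683), with the post-KD library lower in 6 of 10 donors, and over the alternatives it lay between -2.56 and -1.26. *Entpd2* was on the hippocampal gene list that the study chose on these same libraries, so its direction here is not independent evidence. In the frontal cortex the values were 0 to 9.04 CPM pre-KD (median 1.82) and 0 to 17.2 CPM post-KD (median 4.36), a log2 fold change of 0.83 ± 0.87 (-0.91 to 2.57; edgeR adjusted p = 0.964).

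*Nt5e* had the lowest level of the group per kilobase of exon in both regions, while in CPM *Ada* was lower in the frontal cortex. It had 7 counts in the hippocampal pre-KD libraries (4 of 10 libraries above 0) and 11 in the post-KD libraries, of which 10 were in donor 3 (8.34 CPM). In the frontal cortex it had 36 counts pre-KD, 21 of them in donor 4 (11.9 CPM), and 49 post-KD, spread over 8 of 10 libraries at up to 6.36 CPM. It was higher in the frontal cortex in 14 of 20 cohorts, lower in 3 and equal in 3, with a log2 fold change of 2.61 ± 1.27 (95% interval 0.12 to 5.11; edgeR p = 0.0401, adjusted p = 0.419). With *Adora2a* this made 2 of 8 genes with an unadjusted p under 0.05 between the regions, where 10.9% of all genes tested had one. DESeq2 gave 1 of 8, where 2660 of 19422 genes had one in DESeq2. The post-KD log2 fold changes of *Nt5e* were 0.93 ± 1.41 in the hippocampus (-1.87 to 3.73) and 0.35 ± 1.102 in the frontal cortex (-1.85 to 2.54; edgeR adjusted p = 0.9998 and 0.998).

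**Figure D4:**
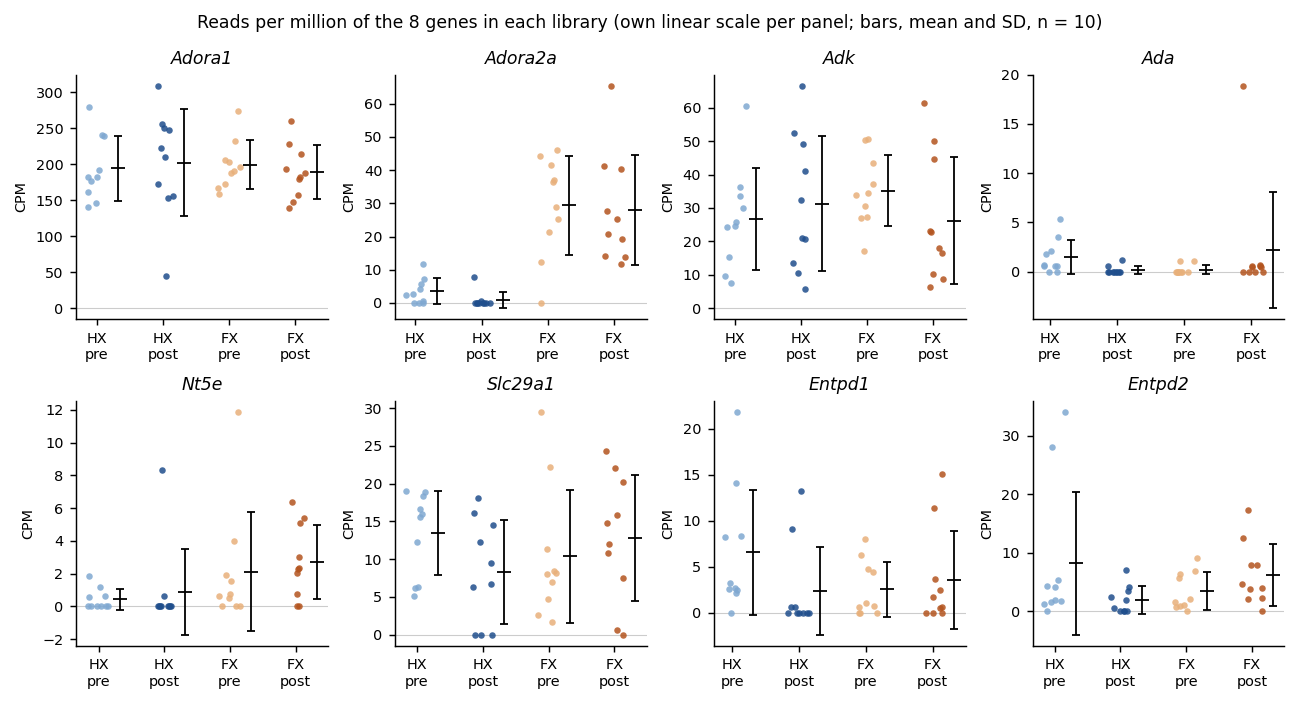
CPM of each gene in each of the 40 libraries (points; HX, hippocampus; FX, frontal cortex; pre and post, pre-KD and post-KD), with the mean and SD of each group of 10 beside the points and an own linear axis per panel. *Adora1* and *Adk* are above 0 in every library, and single libraries at 18.9 CPM (*Ada*), 11.9 CPM (*Nt5e*) and 34.0 CPM (*Entpd2*) set the upper end of their panels.

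Of 66 further genes of adenosine and purine signalling in 6 lists, 65 were matched to an identifier. Between the regions 57 had enough counts to be tested, and 3 passed the adjusted threshold, where 2.85% of all genes tested did. Of these, 1 was higher in the frontal cortex (1.98% of all genes tested) and 2 were lower (0.87%). *Adcy5*, the adenylyl cyclase through which the *Adora2a* receptor acts in striatal neurons, was higher in the frontal cortex (93.8 against 41.9 CPM; log2 fold change 1.31 ± 0.20; edgeR adjusted p = 7.73e-09) in 17 of 20 cohorts. *Adcy1*, a calcium-stimulated cyclase of hippocampal and cortical neurons, was lower (254 against 350 CPM; log2 fold change -0.45 ± 0.10; adjusted p = 3.31e-04), the frontal cortical library being the higher in 3 of 20 cohorts. *Enpp2*, which encodes autotaxin, was lower (189 against 524 CPM; log2 fold change -1.39 ± 0.09; adjusted p = 3.89e-46), the frontal cortical library being the higher in 1 of 20 cohorts. *Enpp2* is also on the list of 10 choroid plexus markers, all 10 of which had a lower estimate in the frontal cortex. Of these, 6 passed the adjusted threshold, where 0.87% of all genes tested did so in that direction. That list summed to 726 to 5612 CPM in the hippocampal and 133 to 893 CPM in the frontal cortical libraries, and its part in the *Enpp2* values was not tested. By list, 0 of 2 other adenosine receptors, 0 of 6 nucleoside transporters, 1 of 9 ectonucleotidases and phosphatases, 0 of 16 intracellular adenosine and AMP enzymes, 0 of 15 ATP and ADP receptors and release channels and 2 of 9 adenylyl cyclases passed.

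**Figure D5:**
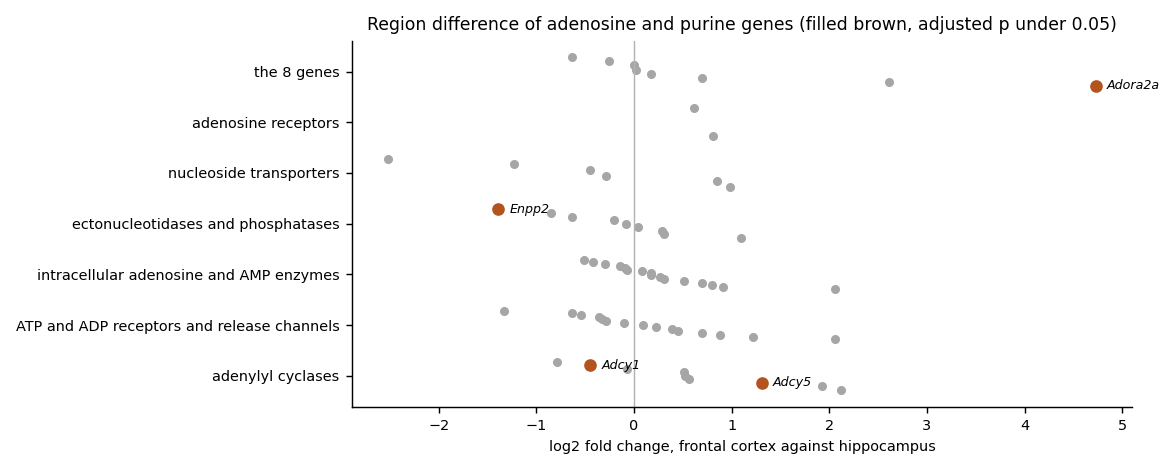
Log2 fold change between frontal cortex and hippocampus (horizontal axis; right, higher in frontal cortex) for the 8 genes and for each tested gene of the 6 other lists (rows). Brown points passed the adjusted threshold: *Adora2a* at 4.73 and *Adcy5* at 1.31 to the right, *Enpp2* at -1.39 and *Adcy1* at -0.45 to the left.

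After the post-KD microbiota 0 of 52 further pathway genes tested passed the adjusted threshold in either region. An unadjusted p under 0.05 was reached by 2 of 52 in the hippocampus, against 10.1% of all genes tested, and by 2 of 52 in the frontal cortex, against 9.68%. The median log2 fold changes were -0.08 and -0.05. *Nt5c3*, a cytosolic 5'-nucleotidase that acts on pyrimidine nucleoside monophosphates, had 24.7 ± 12.9 CPM pre-KD and 46.2 ± 11.9 CPM post-KD in the hippocampus (SD, n = 10; log2 fold change 0.89 ± 0.41; edgeR p = 0.0316, adjusted p = 0.374) and was higher post-KD in 9 of 10 donors. Its frontal cortical level was 33.3 ± 10.3 CPM pre-KD and 46.3 ± 14.04 CPM (SD, n = 10), higher post-KD in 7 of 10 donors (log2 fold change 0.47 ± 0.26; edgeR adjusted p = 0.647). *Adcy9*, another adenylyl cyclase, had 58.9 ± 16.5 CPM pre-KD and 38.4 ± 13.4 CPM post-KD in the frontal cortex (SD, n = 10; log2 fold change -0.62 ± 0.24; edgeR p = 0.0134, adjusted p = 0.227), the post-KD library being the higher in 1 of 10 donors. *P2rx1*, an ATP-gated channel, had 0 counts in the hippocampal pre-KD libraries and 23 in a single post-KD library, and 1 against 26 counts in the frontal cortex (edgeR adjusted p = 0.0774 and 0.277), where 16 of the 26 were in 1 library. *P2rx3*, another ATP-gated channel, had 10 hippocampal counts pre-KD and 1 post-KD (edgeR adjusted p = 0.524), and *Acp3*, an ectophosphatase that can make adenosine from AMP, had 1 frontal cortical count pre-KD and 9 post-KD (edgeR adjusted p = 0.626).

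Lists for the cell types that carry these genes were set beside them. In the hippocampus 0 genes of the astrocyte, microglia, endothelial, choroid plexus, meningeal fibroblast and cortical layer lists of 10 had an unadjusted p under 0.05 in edgeR after the post-KD microbiota, against 1 each of the striatal and oligodendrocyte lists and 2 of the hippocampal neuron list. In the frontal cortex the counts were 2 for the striatal and microglia lists, 1 for the hippocampal neuron list and 0 for the other 6. Such a p was reached by 10.1% of all hippocampal and 9.68% of all frontal cortical genes tested, about 1 gene in a list of 10. None of these genes passed the adjusted threshold. The astrocyte markers summed to 2648 to 3284 CPM in the hippocampal pre-KD and 3051 to 3308 CPM in the post-KD libraries, and the microglia markers to 106 to 307 and 177 to 305 CPM. In the frontal cortex the astrocyte sums were 2824 to 3498 and 2872 to 3483 CPM, and the microglia sums 181 to 285 and 168 to 282 CPM. Between the regions, 1 of 10 astrocyte, 0 of 10 microglia, 0 of 10 endothelial, 0 of 10 oligodendrocyte, 2 of 10 meningeal fibroblast, 4 of 10 hippocampal neuron and 5 of 10 cortical layer markers passed the adjusted threshold, against 2.85% of all genes tested. The astrocyte marker and 4 of the cortical layer markers were higher in the frontal cortex, and the meningeal fibroblast, hippocampal neuron and remaining cortical layer markers were lower.

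After the mean of each region was subtracted, the log2 CPM of *Adora1* was most like that of *Hist3h2a* (Pearson's r = 0.76 over 40 libraries) and *Ddx10* (r = 0.72), among 7671 genes that averaged at least 20 counts in both regions. For *Adk* the leading genes were *Spg20* (r = 0.52) and *Tmem245* (r = 0.50). These values are descriptions of the highest of many correlations over libraries that share their depth and cohort structure, and the other 6 genes had too few reads to be included.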

How the data were processed

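The deposited files hold whole-number read counts per Ensembl gene for 20 hippocampal and 20 frontal cortical libraries. Per the methods and the submitters' processing notes, the authors checked reads with FastQC 0.11.5, aligned them to mm10 with STAR 2.5.2a, used SAMtools 1.3 and counted reads per gene with HTSeq 0.6.0. The annotation release and strand setting are not given in the sources used here. The labels name a TruSeq kit, whereas the study's resource table lists a kit that reads the 3' end, another aligner (HISAT2), Trimmomatic and another FastQC release; which were used for these libraries was not settled, and levels per exon length are also given without length scaling. Total counts per library were 1140756 to 2095352. No normalization had been applied to the counts.

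Of 47643 identifiers, 47224 were given a symbol. Gene positions and exon lengths came from GENCODE M21 (GRCm38). Counts were tested with edgeR 4.0.16 (R 4.3.3; TMM, quasi-likelihood test, genes with at least 10 counts over the fit, Benjamini-Hochberg adjustment over all genes tested, threshold 0.05). Standard errors and 95% intervals were derived from the F statistic. Post-KD and pre-KD libraries were compared within each region, and the regions were compared with the cohort as a term. DESeq2 1.42.0, other filters and scalings, the donor as a block and leaving out donors were alternatives; leaving out donors 9 and 10 together was chosen after seeing the data. CPM values share 1 TMM scale over 40 libraries, with a prior count of 2 for log2 CPM. Permutation tests used scipy 1.17.1. On simulated counts, unchanged genes had an unadjusted p under the threshold more often than the threshold allows in the post-KD comparisons, so unadjusted p-values stand beside the share of all genes that reached one. Same-numbered pre-KD and post-KD cohorts share a stool donor, and the correlation of their libraries' deviations from the group means was -0.03 to 0.03 in the hippocampus and -0.06 to 0.03 in the frontal cortex. In 180 pairs of libraries within groups, 0 had identical values. The p-values measure the spread between pooled libraries.

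The genes, the pathway lists and the marker lists were chosen with earlier results of these data known. All 8 genes are named. Other pathway genes are named where they passed the adjusted threshold or had 1 of the 3 smallest p-values in a diet comparison, and between regions where they were among the 3 largest changes in each direction past the threshold. For genes averaging at least 20 counts in both regions, the 2 most similar genes are named.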

Additional observations from a re-analysis of the deposited data

Results flagged for a closer look

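In 5 of the 32 combinations of gene and group, 1 library stood apart from the other 9 by a large share of the whole range, in each case as the highest. Chance flags about 1 in 20 groups of normally distributed values. That rate was not checked for groups mostly at 0, and 3 of these 5 had 8 of 10 libraries at 0, so the 5 were not read against it. *Ada* in the frontal cortical post-KD libraries reached 18.9 CPM (35 reads) in donor 3, where the next library was at 0.667 CPM. *Nt5e* reached 8.34 CPM (10 reads) in the hippocampal post-KD library of donor 3, next to 0.648 CPM, and 11.9 CPM (21 reads) in the frontal cortical pre-KD library of donor 4, next to 3.98 CPM. *Adora2a* reached 7.70 CPM (13 reads) in the hippocampal post-KD library of donor 2, next to 0.695 CPM. *Ada* in the hippocampal post-KD libraries reached 1.21 CPM in donor 7, which was 2 reads against 1 in the next library.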

How the results depend on the processing

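The number of the 8 genes past the adjusted threshold stayed at 0 in both post-KD comparisons and in the difference between regions, and at 1 (*Adora2a*) between the regions, under every alternative run. *Adora2a* between the regions kept a log2 fold change of 3.84 to 4.94. The replicate block (donor) changed no adjusted call among the 8 genes, but turned the sign of the hippocampal post-KD estimate for *Adora1* (-0.0096) and *Nt5e* (-0.86, and -0.78 in DESeq2 with the block). Without the block (cohort term), *Ada* between the regions was 0.32, *Adora1* -0.0318, and the difference between regions for *Nt5e* -0.59. With DESeq2, *Adora1* between the regions was -0.0193 and *Slc29a1* -0.0296; with RLE size factors they were -0.0185 and -0.0264, and with filterByExpr *Slc29a1* was -0.001. Without donors 9 and 10, *Slc29a1* between the regions was -0.17 and *Adora2a* post-KD in the frontal cortex 0.0624. Leaving out 1 donor in turn, post-KD estimates ranged from -0.0432 to 0.25 (*Adora1*, hippocampus), -0.0299 to 0.56 (*Adk*, hippocampus), -0.40 to 0.0562 (*Adora2a*, frontal cortex) and -0.0565 to 0.92 (*Entpd1*, frontal cortex). Between the regions they ranged from -0.075 to 0.0727 (*Adora1*), -0.0051 to 0.29 (*Adk*), -0.27 to 0.34 (*Slc29a1*) and -0.85 to 0.40 (*Entpd1*), and the difference between regions for *Adora1* from -0.31 to 0.0564. None of these estimates passed a threshold, and the cause of the changes was not tested. The correlation of *Adora2a* with striatal markers was 0.41 on linear CPM in the hippocampus (p above 0.05) and -0.0265 with a prior count of 0.5 in the frontal cortex. Without length scaling, 5 of 16 ranks moved, all in the frontal cortex, where *Adora2a* fell below *Adk*. Over all genes, the number past the adjusted threshold was 1 in the hippocampus (1291 with no filter, 0 with the donor block or in DESeq2), 1 in the frontal cortex (3 with the block, 12 with the block in DESeq2, 2 in DESeq2), 554 between the regions (1033 in DESeq2, 1935 without the cohort term) and 3 for the difference between regions (348 without the cohort term). *P2rx1* was the pathway gene called in the hippocampus with no filter. The standard errors of the post-KD estimates were above 1 on the log2 scale for *Ada*, *Nt5e* and *Entpd1* in both regions and for *Adora2a* and *Entpd2* in the hippocampus, so these data set wide limits on their changes.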
